A study of Homo sapiens with 6 samples.

Results

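The Notch receptors NOTCH1, NOTCH2 and NOTCH3, the Jagged ligands JAG1 and JAG2, and the target genes HES1, HES4, HEY1, HEYL and NRARP were followed in LX-2 cells, an established line of human hepatic stellate cells. They are 10 of the 27830 genes in the deposited table, taken by gene name, and each name had 1 row. The 6 RNA sequencing libraries fall into a group given transforming growth factor beta 1 (TGF-β1) at 10 ng/ml for 24 h (n = 3) and an untreated control group (n = 3). Treatment was done without serum, per the labels' protocols, while the control medium is not described there, so TGF-β1 and a difference in serum cannot be told apart here. All libraries come from 1 line. Whether the replicates were independent cultures is not stated, and the p-values below then reflect a spread that may be no more than technical.

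Notch signalling passes between touching cells. A ligand of the Jagged or Delta-like family on one cell binds a Notch receptor on its neighbour, ADAM proteases and then γ-secretase cut the receptor, and the freed intracellular part joins the DNA-binding protein RBPJ and a Mastermind co-activator to switch on genes of the HES and HEY families, which encode transcriptional repressors. Hepatic stellate cells, the pericytes of the liver sinusoid and a main source of scar matrix in fibrosis, carry Notch receptors, and the pathway has been studied as a partner of TGF-β in their activation.

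None of the 10 genes passed the test between TGF-β1 and control cells (edgeR, adjusted p 0.239 to 0.824), nor did any under limma voom or under DESeq2, which gave no adjusted p for NRARP. The background was 53 of 14463 tested genes, or 0.366%. With the trend on GC content described below removed, none of the 10 passed either, against 3.64% of all tested genes. At an unadjusted p under 0.05 there were 3 of the 10, NOTCH1, NOTCH3 and HEYL, each lower with TGF-β1. That share stood beside 15.6% of all tested genes past the same threshold in either direction and 4.49% past it and lower. It came to 1 of the 10, NOTCH3, with the GC trend removed, against 20.8% of all, and to 1 without TGF-β1 replicate 2 or without control replicate 2. Groups did not overlap for 1 gene higher with TGF-β1 and 2 lower, against 7.93% and 9.12% of all tested genes. The median log2 fold change was -0.28 over the 10 genes and 0.01 over all tested genes, with 8 of the 10 below 0. With the GC trend removed these medians were -0.19 and -0.01, again with 8 of the 10 below 0. For 7 of the 10 the 95% interval of the log2 fold change lay inside a 2-fold change either way; the exceptions were JAG2, HEYL and NRARP.

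**Figure D1:**
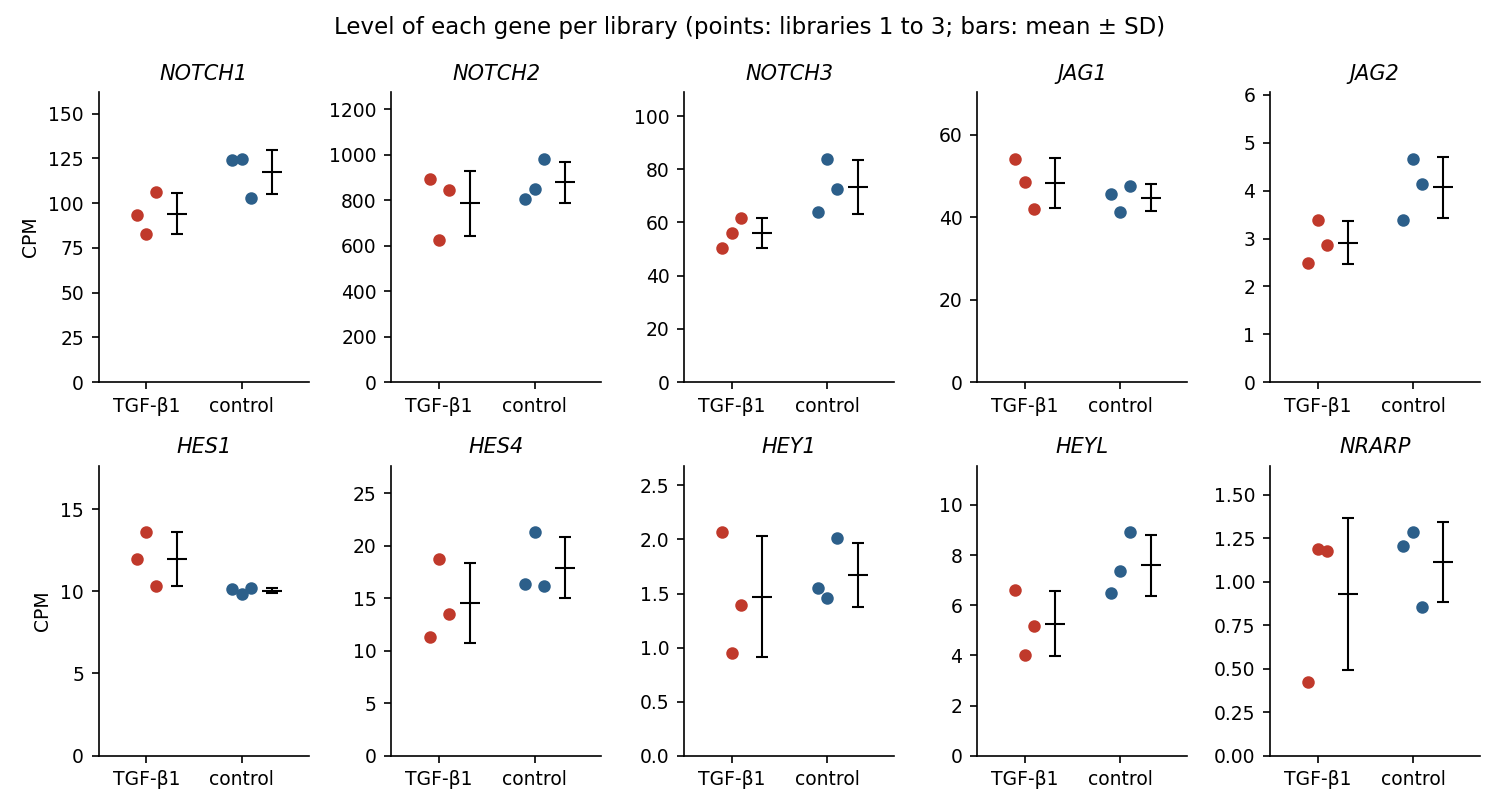
CPM (read counts scaled to a fixed library size, with TMM factors) of the 10 genes, 1 panel per gene, with TGF-β1 libraries left of control libraries. Points are libraries and bars are mean ± SD of 3. On this scale the groups are apart for NOTCH3 and JAG2, lower with TGF-β1, and for HES1, higher with TGF-β1. They overlap for the other genes.

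Total counts ran from 13866957 to 16454700 in the TGF-β1 libraries and from 14118402 to 17694675 in the control libraries. Of the 12 listed stellate cell and mesenchymal markers, COL1A1, VIM and COL3A1 had at least 18192, 18406 and 1287 counts in every library. PDGFRB and HAND2 had at least 660 and 187, and COL1A2 had 29 to 48. PDGFRA, LUM, RGS5, DCN, DES and LRAT had at most 12, 14, 13, 6, 5 and 2. The 12 summed to 2987 to 3430 CPM of total counts with TGF-β1 and 2838 to 2915 in controls. COL3A1 passed (edgeR adjusted p = 0.035), higher with TGF-β1. Of the hepatocyte markers APOA1 and CYP3A4 had at most 1 count, but SERPINA1 and CPS1 had at least 371 and 339, and the 4 of 7 listed markers in the table summed to 57.2 to 72.5 CPM of total counts with TGF-β1 and 50.3 to 54.1 in controls. Of the epithelial markers EPCAM and KRT19 had at most 1 and 2 counts, but KRT8, KRT18 and SOX9 had at least 4375, 2464 and 1022, and the 6 of 7 in the table summed to 498 to 672 CPM with TGF-β1 and 630 to 737 in controls. Of the endothelial markers CDH5 and STAB2 had at most 4 and 3 counts, but TIE1 and FLT1 had at least 4307 and 1658, and the 8 of 9 in the table summed to 435 to 453 CPM with TGF-β1 and 443 to 454 in controls. Of the leukocyte markers PTPRC had 3 to 16 counts, but CD14 and ITGAX had at least 150 and 148, and the 4 of 6 in the table summed to 25.5 to 28.7 CPM with TGF-β1 and 28.8 to 36.1 in controls. The stellate, hepatocyte and leukocyte sums did not overlap between the groups. No tested marker of the 4 lists other than the stellate one passed. The part of these cell types in the results below was not tested. Libraries also differed with the GC content of transcripts: over the 1440 tested genes with a GC content up to 40%, the median log2 deviation from the gene mean was 0.71 in TGF-β1 replicate 1, 0.23 in replicate 2 and -0.19 in replicate 3, and -0.10, -0.47 and -0.12 in the controls by replicate number. Log2 fold changes with this trend removed are given for the 10 genes and for the list medians. In bulk RNA, fewer cells expressing a gene and less of its RNA per cell cannot be told apart.

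The receptors were read most deeply. NOTCH2 was by far the most abundant of them, also per length, with 891, 625 and 845 CPM in the TGF-β1 libraries, in the order of replicates 1 to 3 kept throughout, and 807, 848 and 981 CPM in the control libraries. The ranges overlapped, and the lowest library was TGF-β1 replicate 2. The log2 fold change was -0.16 ± 0.15 (SE, 95% interval -0.49 to 0.17; edgeR adjusted p = 0.643), and -0.19 with the GC trend removed. NOTCH2 lies on the minus strand of chromosome 1 from 119911553 to 120069626 of GRCh38. It has partial copies, the NOTCH2NL genes, whose reads may not be separable from its own. The rows for NOTCH2NLA, NOTCH2NLC and NOTCH2NLR held 52 counts over all libraries, 0.066% of the 78754 counts of NOTCH2.

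NOTCH1, the founding member of the receptor family, had 93.3, 83.0 and 106 CPM with TGF-β1 and 124, 125 and 103 CPM in controls. TGF-β1 replicate 3 reached above control replicate 3, so the groups overlapped. The level was 1.247-fold lower with TGF-β1, at a log2 fold change of -0.32 ± 0.14 (SE; 95% interval -0.62 to -0.01), and this did not pass (edgeR adjusted p = 0.298). With the GC trend removed the log2 fold change was -0.20. NOTCH1 lies on the minus strand of chromosome 9 from 136494433 to 136545786, and its transcripts have a GC content of 63.7%.

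NOTCH3, the receptor typical of vascular smooth muscle cells and pericytes, had the smallest p of the 10 genes. It had 50.6, 56.0 and 61.9 CPM with TGF-β1, all below the 63.8, 83.9 and 72.5 CPM of the controls. The gap between the highest TGF-β1 library and the lowest control library was narrow. Mean levels were 56.1 ± 5.64 CPM with TGF-β1 and 73.4 ± 10.05 CPM in controls (SD, n = 3 each), a 1.31-fold lower level at a log2 fold change of -0.39 ± 0.15 (SE; 95% interval -0.71 to -0.07). It did not pass (edgeR adjusted p = 0.239). With the GC trend removed the log2 fold change was -0.27 ± 0.09 (SE; edgeR adjusted p = 0.109), and over all 16 alternatives the adjusted p ran from 0.0734 to 0.644. The gene lies on the minus strand of chromosome 19 from 15159038 to 15200981, with a GC content of 63.1%, and no exon base of any of the 3 receptors overlaps another gene.

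**Figure D2:**
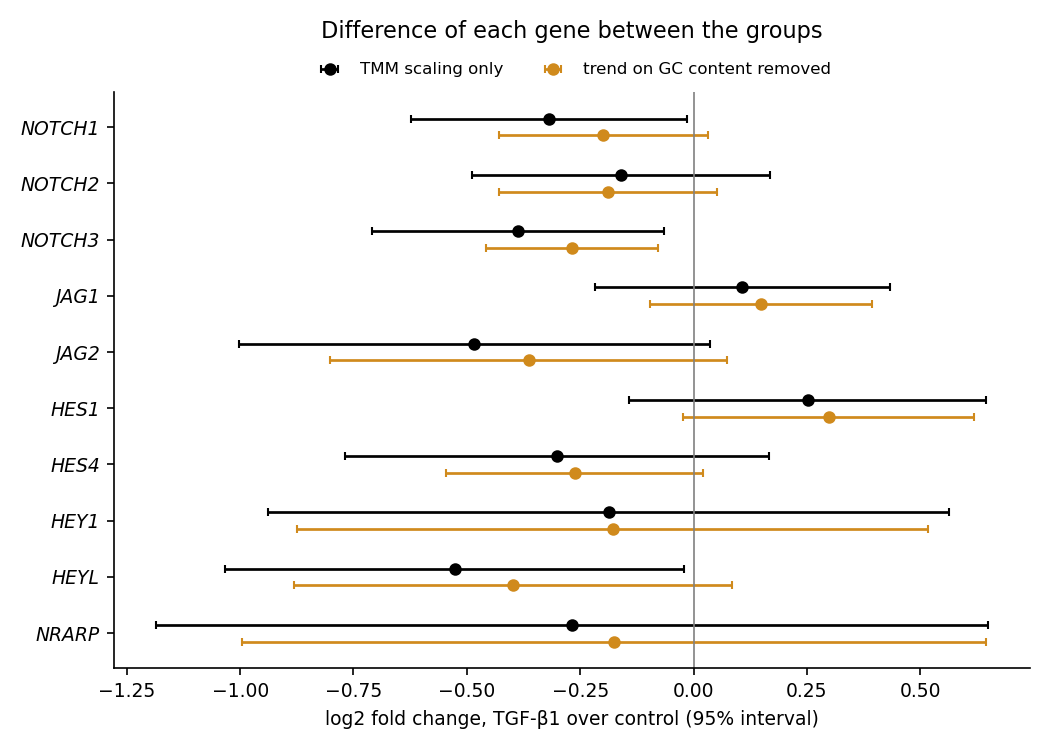
Log2 fold change of each of the 10 genes (TGF-β1 over control, horizontal axis) with its 95% interval, from edgeR with TMM scaling only (black) and with the trend of each library on GC content removed (orange). HES1 and JAG1 lie above 0 and the other 8 genes below it under both, and with TMM scaling only the intervals of NOTCH1, NOTCH3 and HEYL leave out 0.

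To set receptors beside each other, the deposited FPKM values (counts divided by gene length and library total) were used, since they account for length. NOTCH2 made up 73.9% ± 3.20 of the summed FPKM of NOTCH1 to NOTCH4 in TGF-β1 cells and 71.6% ± 3.29 in control cells (SD, n = 3 each). NOTCH1 made up 14.2% ± 1.15 with TGF-β1 and 15.3% ± 2.45 in controls, and NOTCH3 11.4% ± 2.09 and 12.7% ± 1.52 in the same order. Each of these differences was smaller than the spread within a group. NOTCH4, which is mainly an endothelial receptor, had 0.47% ± 0.11 of the sum with TGF-β1 and 0.38% ± 0.10 in controls. The authors' FPKM uses 1 length per gene, 19930 bases for NOTCH2 and 9408 for NOTCH3, so shares shift if the expressed transcripts are shorter than that.

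Of the Jagged ligands, JAG1 was the abundant one. It had 54.1, 48.6 and 41.9 CPM with TGF-β1 and 45.5, 41.1 and 47.6 CPM in controls, and the groups overlapped. Its log2 fold change was 0.11 ± 0.15 (SE, 95% interval -0.22 to 0.43; edgeR adjusted p = 0.763), and 0.15 with the GC trend removed. JAG1 lies on the minus strand of chromosome 20 from 10637684 to 10673999, and 0.85% of its exon bases overlap a gene on the opposite strand, which libraries made without strand cannot separate.

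JAG2 was far lower, at a mean of 0.544 FPKM beside 4.9996 FPKM for JAG1, with 41, 57 and 39 counts in the TGF-β1 libraries and 48, 80 and 68 in the control libraries. On the CPM scale these were 2.49, 3.38 and 2.87 with TGF-β1 and 3.39, 4.66 and 4.14 in controls. The groups were apart in CPM, but TGF-β1 replicate 2 and control replicate 1 nearly met. In deposited FPKM the groups overlapped, with 0.542 in TGF-β1 replicate 2 and 0.532 in control replicate 1. The log2 fold change of -0.48 ± 0.24 (SE; 95% interval -1.003 to 0.04) did not pass (edgeR adjusted p = 0.35) and was -0.36 with the GC trend removed, and 7.33% of the exon bases of JAG2 overlap another gene on its own strand.

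The 2 Jagged genes were set beside the Delta-like genes DLL1, DLL3 and DLL4 in the same way. The further ligand genes DNER, EGFL7 and DLK2 are not in this sum, with means of 70.1, 16.9 and 9.09 FPKM over all libraries. The 5 Jagged and Delta-like genes together had a mean of 13.6 FPKM with TGF-β1 and 13.2 in controls. DLL1 made up 43.9% ± 1.62 of the summed FPKM of these 5 genes in TGF-β1 cells and 45.5% ± 2.28 in control cells, and JAG1 38.3% ± 3.62 with TGF-β1 and 36.1% ± 2.43 in controls (SD, n = 3 each). JAG2 held 3.37% ± 0.46 with TGF-β1 and 4.79% ± 0.85 in controls, with all 3 TGF-β1 libraries below all 3 control libraries. DLL3 held 9.14% to 12.3% in the single libraries and DLL4 2.81% to 4.45%.

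**Figure D3:**
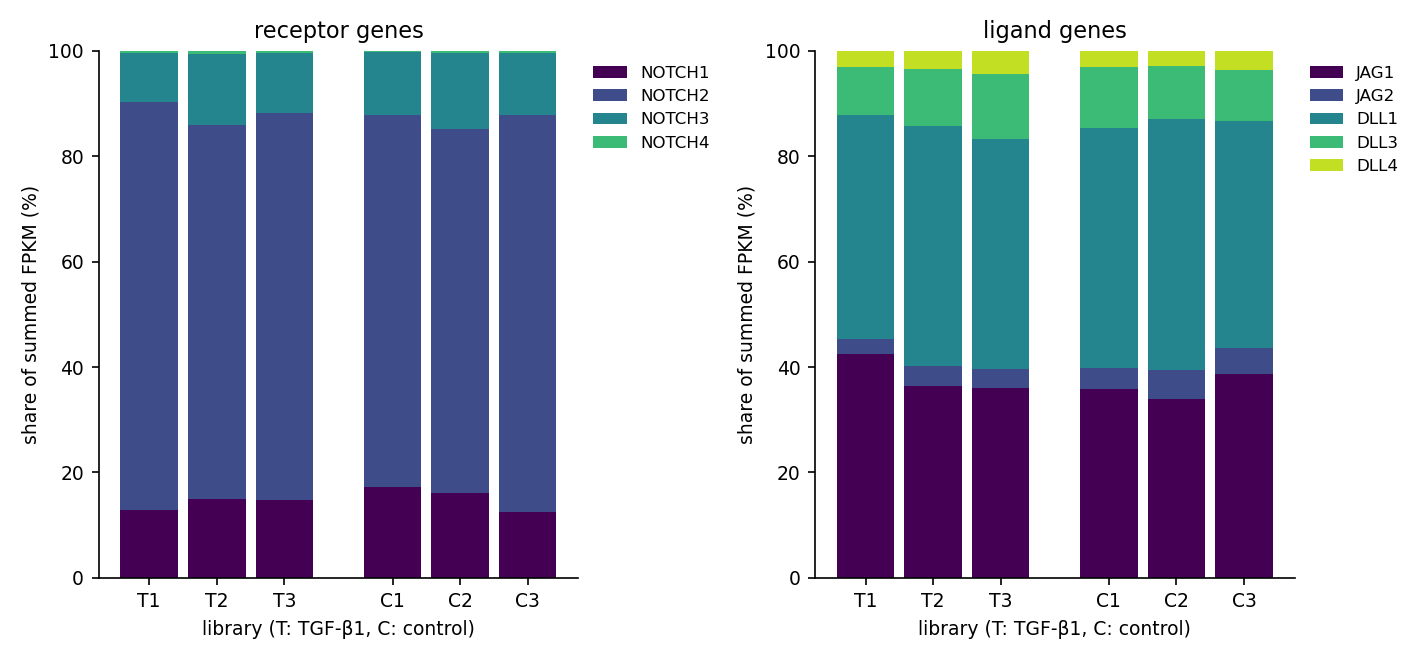
Share of each gene in the summed deposited FPKM of the 4 receptor genes (left) and of the 5 Jagged and Delta-like genes (right), 1 bar per library, TGF-β1 replicates (T1 to T3) left of control replicates (C1 to C3). NOTCH2 takes at least 68.9% of receptor FPKM in every library, and JAG1 and DLL1 take most of the FPKM on the right.

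Among the targets, HES1, the classic Notch target and a basic helix-loop-helix repressor, was the one with all TGF-β1 libraries above all controls in CPM. It had 11.96, 13.6 and 10.3 CPM with TGF-β1 and 10.1, 9.85 and 10.2 CPM in controls. The control libraries lay close together and TGF-β1 replicate 3 was barely above them. In deposited FPKM the groups overlapped, with 4.90 in TGF-β1 replicate 3 below 4.92 and 4.96 in control replicates 1 and 3. Its log2 fold change was 0.25 ± 0.18 (SE), with a 95% interval of -0.14 to 0.65, and did not pass (edgeR adjusted p = 0.534). It was 0.30 with the GC trend removed. HES1 lies on the plus strand of chromosome 3 from 194136145 to 194138732.

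HEYL, a HEY family repressor found in mural cells, had the largest absolute log2 fold change of the 10 genes. Its counts were 109, 68 and 70 with TGF-β1 and 92, 126 and 146 in controls, or 6.62, 4.03 and 5.15 CPM with TGF-β1 and 6.50, 7.34 and 8.90 CPM in controls. TGF-β1 replicate 1 stood just above control replicate 1, so the groups overlapped. The 1.44-fold lower level (log2 fold change -0.53 ± 0.23 SE, 95% interval -1.03 to -0.02) did not pass (edgeR adjusted p = 0.3), and the log2 fold change was -0.40 with the GC trend removed. HEYL lies on the minus strand of chromosome 1 from 39624153 to 39639945.

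HES4, a HES family repressor, had 11.4, 18.7 and 13.5 CPM with TGF-β1 and 16.3, 21.3 and 16.2 CPM in controls. The second replicate was the highest of each group, and the groups overlapped (log2 fold change -0.30 ± 0.21 SE, 95% interval -0.77 to 0.17, edgeR adjusted p = 0.533). The log2 fold change was -0.26 with the GC trend removed. Its GC content of 74.2% was the highest of the 10 genes.

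The remaining targets were near the limit of the depth. HEY1, a HEY family repressor, had 34, 16 and 19 counts with TGF-β1 and 22, 25 and 33 in controls. NRARP, a feedback inhibitor that acts on the Notch nuclear complex, had 7, 20 and 16 counts with TGF-β1 and 17, 22 and 14 in controls. Both overlapped between groups, with 95% intervals of -0.94 to 0.56 for HEY1 (edgeR adjusted p = 0.824) and -1.19 to 0.65 for NRARP (edgeR adjusted p = 0.791), so a moderate change in either direction was not detectable. Both genes had a log2 fold change of -0.18 with the GC trend removed. The sign of NRARP turned without TGF-β1 replicate 1 (log2 fold change 0.09) and that of HEY1 without TGF-β1 replicate 2 (0.06).

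The sequence before the RefSeq starts of HES1, HES4 and HEYL is shown for the letters TGGGAA, the core of the sequence that RBPJ binds. Among the windows searched, theirs are the ones that hold these letters. Sequences are from RefSeq on GRCh38.p14, which had an entry for 9 of the 10 genes, all but HEY1. Positions count from the RefSeq start, which lies inside the GENCODE 29 gene, by 3 bases for HES1, 75 for HES4 and 302 for HEYL, so both HEYL matches below lie within the GENCODE gene and the HES4 match spans its first base. In the 250 bases before the RefSeq start of HES1 (chr3:194135898-194136147, plus strand, written 5′ to 3′ with each match in capitals), TGGGAA occurs at 84 to 79 and again at 70 to 65 bases before the start, both on the strand of the gene, 14 bases apart from start to start.
HES1: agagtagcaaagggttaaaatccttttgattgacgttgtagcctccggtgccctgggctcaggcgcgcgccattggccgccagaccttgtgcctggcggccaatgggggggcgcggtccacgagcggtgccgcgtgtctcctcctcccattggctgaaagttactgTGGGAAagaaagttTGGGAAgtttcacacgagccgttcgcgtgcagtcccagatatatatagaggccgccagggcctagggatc
For HES4 (chr1:1000156-1000185, minus strand) and HEYL (chr1:39639804-39639833 and chr1:39639725-39639754, minus strand), 30 bases around each match are given on the strand of the gene. The first HEYL match reads TTCCCA, which is TGGGAA on the other strand.
HES4: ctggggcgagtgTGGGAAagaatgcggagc
HEYL, farther match: ccgcctagggccTTCCCAcggctcggcggc
HEYL, nearer match: aggaaagggcccTGGGAAagggcggtggcg

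On either strand, TGGGAA was found in 3 of the 9 windows, those of HES1, HES4 and HEYL, and in 21.1% of 27305 windows of the same length. The longer GTGGGAA, which contains it, was in the same 3 windows and in 5.46% of all. CACNAG, a site of HES proteins, was in the windows of HES1 and NOTCH3 and in 32% of all, CAGAC, letters bound by SMAD proteins, in that of HES1 and in 37.8% of all, and CACGTG in none of the 9 and in 6.49% of all. All motifs were searched on both strands, and no CACNAG or CAGAC match overlapped a TGGGAA match in HES1. A match is a run of letters, not a measured site. The 3 genes with TGGGAA had log2 fold changes of both signs, but none of them passed. A link between the letters and these values was not tested.

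Ordered by FPKM over the 6 libraries, the genes ran NOTCH2 (mean 41.7), HES4 (14.5), NOTCH1 (8.41), NOTCH3 (6.86), HES1 (5.34), JAG1 (4.9996), HEYL (1.57), JAG2 (0.544), NRARP (0.385) and HEY1 (0.286). Ranges over libraries overlapped between the neighbours NOTCH1 and NOTCH3, NOTCH3 and HES1, HES1 and JAG1, JAG2 and NRARP, and NRARP and HEY1. Within each single library NOTCH1 was above NOTCH3, and JAG2 above NRARP. The other orders of these neighbours turned between libraries and are not resolved. NOTCH2, HES4 and HEYL stood clear of their neighbours at the authors' 1 length per gene. That length is 12531 bases for NOTCH1 and 1118 for HES4, beside 10377 and 1118 exon bases in GENCODE 29. With the GENCODE lengths HES4 stays above NOTCH1, though other lengths of the expressed transcripts could change this. For NRARP the authors' length is 2641 bases beside 1770 in GENCODE 29, and for JAG2 it is 6396 beside 6397. The order of JAG2 and NRARP can therefore shift with the length used.

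The rest of the pathway was taken from a list of 48 genes, of which 42 were tested. None passed in either direction (edgeR adjusted p 0.222 to 0.98), nor did any under limma voom or under DESeq2, which gave no adjusted p for NEURL1. At an unadjusted p under 0.05, 6 were higher and 2 lower, against 11.1% and 4.49% of all tested genes. The median log2 fold change was 0.04, with 23 genes above 0 and 19 below it. It was 0.08 with the GC trend removed, with 30 above 0 and 12 below it. By role, the median was 0.37 over 8 nuclear complex genes, -0.10 over 6 γ-secretase genes, 0.02 over 6 further ligands, 0.07 over 12 endocytosis and turnover genes and -0.12 over 4 sugar transferases. In the same order of roles it was 0.19, -0.08, 0.13, 0.04 and -0.00025 with the GC trend removed.

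The largest positive values belonged to genes with a GC content under 50%. MAML2, a Mastermind co-activator of the Notch complex, had 28.7, 14.6 and 16.5 CPM with TGF-β1 and 13.6, 9.15 and 14.4 CPM in controls. All TGF-β1 libraries were above all controls, by a small margin for replicate 2 (log2 fold change 0.69 ± 0.27 SE, edgeR adjusted p = 0.255). MIB1, a ubiquitin ligase needed for the endocytosis of Notch ligands, had 106, 70.9 and 48.0 CPM with TGF-β1 and 52.7, 42.3 and 47.3 CPM in controls, at a log2 fold change of 0.66 ± 0.24 (SE, edgeR adjusted p = 0.222). ADAM10, the protease of the first receptor cut after ligand binding, had 161, 97.8 and 75.6 CPM with TGF-β1 and 78.5, 56.2 and 81.2 CPM in controls. Its log2 fold change was 0.63 ± 0.25 (SE, edgeR adjusted p = 0.255).

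RBPJ, the DNA-binding partner of the receptor, had 71.4, 38.8 and 33.0 CPM with TGF-β1 and 36.5, 23.5 and 37.6 CPM in controls, at a log2 fold change of 0.55 ± 0.28 (SE, edgeR adjusted p = 0.362). In all 4 of these genes TGF-β1 replicate 1 was the highest library. It was also the highest library over transcripts with a GC content up to 40%, of which MIB1 (39.4%) is one. ADAM10 (40.5%), RBPJ (40.8%) and MAML2 (45.9%) lie above that limit. Over genes from 40% to 60% the median log2 deviation of this library was 0.036. Whether the GC trend accounts for the values of these genes was not tested. With the GC trend removed, the log2 fold changes were 0.18 for MIB1, 0.22 for ADAM10 and 0.16 for RBPJ, against 0.66, 0.63 and 0.55 with it left in. Those of MAML2 (0.60) and of the co-repressor gene NCOR1 (0.43 beside 0.50 before) moved less. Over the 15 list genes with a GC content under 50% the median log2 fold change was 0.39, and 0.16 with the trend removed; over the other 27 genes it was -0.04, and 0.06 with the trend removed. Without TGF-β1 replicate 3, MIB1 (edgeR adjusted p = 0.00977, 0.00329 to 0.467 over its alternatives), ADAM10 (0.0225, 0.00288 to 0.591) and NEURL1B (0.0297, 0.0297 to 0.657) passed. These were 3 of 42 tested pathway genes. Over all genes 1671 passed in that setting, beside 53 in the main fit, so such calls were common there.

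**Figure D4:**
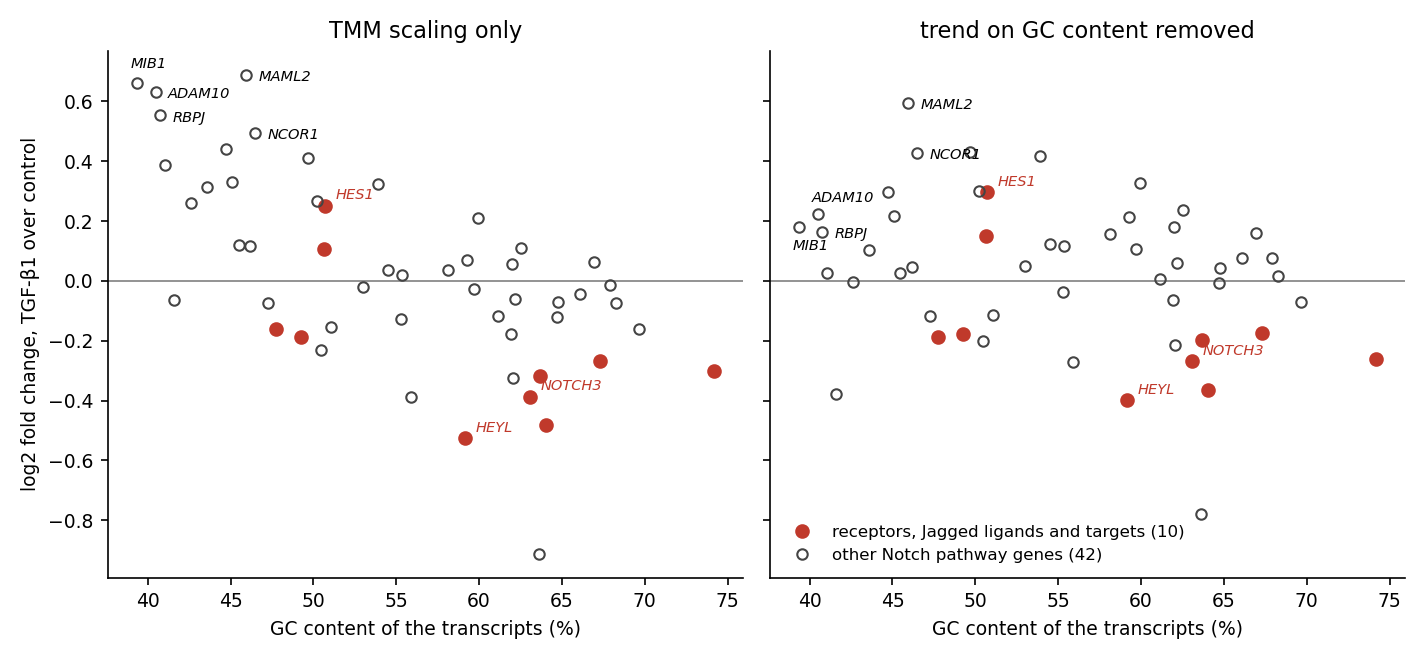
Log2 fold change (TGF-β1 over control, vertical axis) against the GC content of the transcripts (horizontal axis, %) for the 10 genes (filled) and 42 other tested Notch pathway genes (open), with TMM scaling only (left) and with the GC trend removed (right). On the left MIB1, ADAM10 and RBPJ lie at 0.55 to 0.66, on the right at 0.16 to 0.22, while HES1 stays above 0 and NOTCH3 and HEYL below 0 in both.

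Of the most abundant gene of each role, DNER, which encodes a Notch-binding protein known from neurons, had 310, 303 and 290 CPM with TGF-β1 and 249, 241 and 261 CPM in controls. All TGF-β1 libraries lay above all controls and the spread within each group was small, yet the 1.204-fold difference (log2 fold change 0.27 ± 0.11 SE) did not pass (edgeR adjusted p = 0.28). With the GC trend removed it was 0.30 ± 0.08 (SE, edgeR adjusted p = 0.0553), with 0.0553 to 0.773 over its alternatives. FURIN, which cleaves the receptor during its maturation, had 462 ± 38.7 CPM with TGF-β1 and 444 ± 50.6 CPM in controls (SD, n = 3 each, edgeR adjusted p = 0.86). POFUT1, which adds fucose to the receptor, had 395 ± 53.7 CPM with TGF-β1 and 440 ± 19.5 CPM in controls (edgeR adjusted p = 0.597). NEURL1B, a ubiquitin ligase of the Neuralized family, had 110 ± 20.1 CPM with TGF-β1 and 138 ± 5.55 CPM in controls (edgeR adjusted p = 0.301).

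The groups overlapped for the γ-secretase subunit gene APH1A (edgeR adjusted p = 0.701), the co-repressor gene NCOR1 (0.28), the target HES6 (0.771), NOTCH4 (0.931) and the ubiquitin ligase gene DTX3L (0.32). The targets HES2, HES5 and HEY2 had at most 3 counts in any library and were not tested, nor were MFNG and DTX1 with at most 4 and 7, and DLK1 was not analysed here. HEY2 had 3, 1 and 1 counts with TGF-β1 and 0 in all controls, all at or under a detection floor of 3 counts, so no fold is given.

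Of 10642 tested genes with a symbol and at least 5 CPM on average, those whose centred log2 CPM over the 6 libraries lay closest to that of NOTCH3 were NUDT2, BACE2 and GATD1, with root mean square differences of 0.048, 0.048 and 0.054. This is a description over 6 libraries, and none of these genes passed the test (edgeR adjusted p = 0.34, 0.465 and 0.236).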

How the data were processed

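Per the labels' protocols, RNA from LX-2 cells was made into libraries with a kit that does not mark strand. HISAT2, HTSeq 0.13.5 and GRCh38 are named in the submitters' processing notes, with no role or order. The authors deposited 1 table with a whole-number read count and an FPKM value per gene and sample. The FPKM values deposited by the authors equal the count divided by 1 length per gene and by the column total. The main test was the robust quasi-likelihood F test of edgeR 4.0.16 (R 4.3.3), with TMM scaling and filterByExpr, across 14463 genes, with Benjamini-Hochberg adjustment over all of them and calls at an adjusted p under 0.05. CPM are on TMM-scaled library sizes, except for sums of marker genes, which use total counts. A count of 3, the detection floor, is 0.175 to 0.221 CPM on the TMM-scaled sizes and covers counting error only.

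Coordinates, overlaps and transcript GC content come from GENCODE 29 (26980 genes matched). The GC trend was removed as a loess fit (span 0.5) per library. Alternatives were other scalings and filters, a replicate block, DESeq2 1.42.0, limma voom (limma 3.58.1), GC removal and each sample left out. All 10 genes are named, with pathway genes that passed, the 6 with the largest absolute log2 fold change at a mean of at least 5 CPM, the most abundant tested gene per role, and the 3 profiles closest to the gene of smallest p. One gene of this rule is not reported here. Genes and lists were chosen with earlier results of these data known; HEY2 and the untested HES genes were named after their values were seen.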

Additional observations from a re-analysis of the deposited data

How the results depend on the processing

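None of the 10 genes passed under any of the 16 alternatives that gave it an adjusted p (0.0734 to 0.993); DESeq2 gave none for NRARP. The 3 genes at an unadjusted p under 0.05 numbered 1 with the GC trend removed and 1 to 3 with 1 sample left out, 1 of them without TGF-β1 replicate 2 and 1 without control replicate 2. Pathway genes that passed numbered 4 with no filter (MIB1, ADAM10, NCOR1, MAML2), 2 with GC removal and the block together (NCOR1, MAML2) and 0 to 3 without 1 sample, the 3 without TGF-β1 replicate 3. In these settings, in the same order, 1240, 530 and 1671 of all genes passed. The numbers tested with no filter or without 1 sample are not given here. These counts are therefore not read as a result about the pathway. Over all genes the 53 that passed became 111 with upper quartile factors, 1240 with no filter, 615 with DESeq2, 527 with the GC trend removed and 4 to 1671 without 1 sample (324 without TGF-β1 replicate 1, 4 without replicate 2, 1671 without replicate 3, and 13 and 15 without control replicates 1 and 3). Their causes were not tested. A replicate block gave 527, and 530 with GC removal, and 0 of the 10 genes in both. Same-numbered samples correlated at 0.164, 0.0928 and -0.336 in their deviations, so the numbers were not taken as pairs; only number 2 was the best partner of its own TGF-β1 sample. With 1 sample left out, signs turned for 2 of the 10 genes and 17 of the 42 tested pathway genes; of those named here with a fold change or adjusted p these were HEY1 (-0.53 to 0.057), NRARP (-0.51 to 0.086), FURIN (-0.0098 to 0.13), HES6 (-0.32 to 0.072) and NOTCH4 (-0.12 to 0.28). Depth limits HEY1, NRARP and JAG2, with 7 to 80 counts per library.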
